A study of Homo sapiens with 6 samples.

Results

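Lipid droplet, lipolysis and triglyceride genes were compared between hypoxia and normoxia in SCC25, an established line of human oral squamous cell carcinoma labelled as wild type (WT). The 10 genes were taken by symbol from a count table of 21776 genes: HILPDA, PLIN2 and PLIN3 for the droplet, PNPLA2 and G0S2 for lipolysis, LPIN1, DGAT1 and DGAT2 for triglyceride synthesis, and FABP5 and CPT1A for fatty acid transport and oxidation. All 10 genes had a row, and 9 of them passed the filter on low counts and were tested; G0S2 did not pass. The cells were exposed for 12 h either to hypoxia (1% O2 and 5% CO2, with nitrogen making up the rest) or to normoxia (air with 5% CO2), in DMEM/F12 medium with serum, and the labels give no allele or agent other than oxygen that separated the groups. The 3 hypoxia libraries held 30186813, 36076088 and 32272716 counts, and the 3 normoxia libraries 37278703, 29637189 and 29981208. The line is a single culture model without the fat cells or vessels of a tumor, and nothing in the labels says that libraries came from separate cultures, so the p-values measure the spread between these libraries, which may be technical.

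Lipid droplets store triglyceride and cholesteryl ester under a single layer of phospholipid that perilipins coat. Triglyceride is made from fatty acid and glycerol 3-phosphate, with lipins providing diacylglycerol and DGAT enzymes adding the last fatty acid, and it is broken down first by adipose triglyceride lipase (ATGL), the product of PNPLA2. Cells short of oxygen are known to accumulate droplets, and HILPDA, a small droplet protein and a known target of hypoxia-inducible factors (HIF), inhibits ATGL.

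Of the 9 genes tested, 6 were higher and 2 lower under hypoxia (adjusted p-value under 0.05) in edgeR's quasi-likelihood test with Benjamini-Hochberg adjustment, and DGAT2 passed in neither direction. Across all 14255 genes tested, 39.2% were higher and 38.5% lower by the same rule, so that most genes in these cells carried a call in one direction or the other. With a log2-fold change beyond 1 as well, 3 genes were higher (HILPDA, PLIN2 and LPIN1), against 19.9% of all genes tested, and FABP5 was lower, against 10.5%. In 6 genes all hypoxia values in CPM, counts scaled to a common library size, lay above all normoxia values, and in 2 genes all lay below, where 40.6% and 39.9% of all genes tested did the same. Over the 9 genes the log2-fold changes had a median of 0.37, beside 0.023 for all genes tested. HILPDA and PLIN2 stood 6 and 7 in the order of p-values and 467 and 691 in the order of log2-fold changes, from the highest of the 14255 genes.

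**Figure D1:**
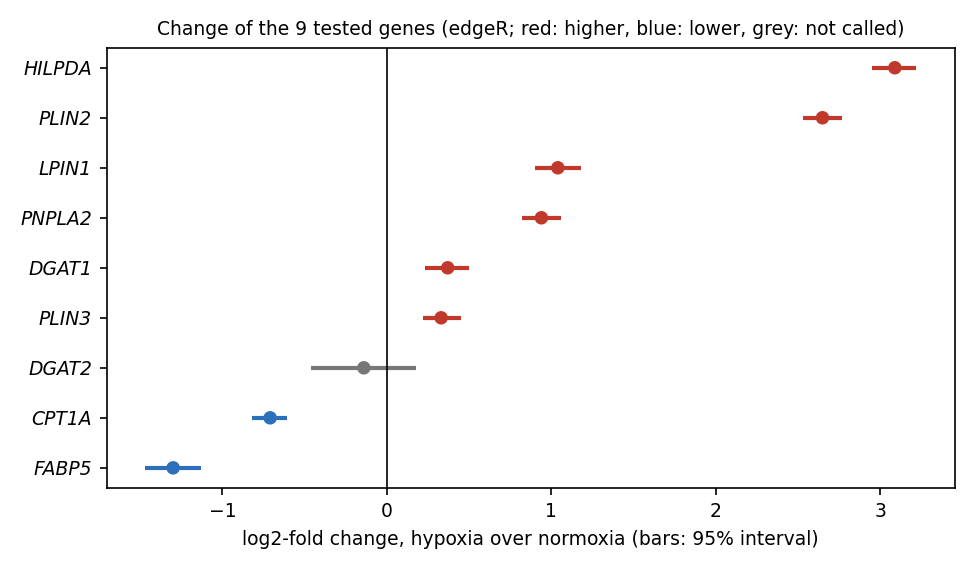
Log2-fold change of each tested gene under hypoxia relative to normoxia on the x axis, with 3 libraries per condition. Bars are approximate 95% intervals, computed from the edgeR F statistic with a normal quantile. HILPDA and PLIN2 lie at 3.09 and 2.65, CPT1A and FABP5 lie below 0, and the interval of DGAT2 spans 0.

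The labels were first checked against genes known to respond to oxygen. All 8 genes looked up for this (CA9, VEGFA, NDRG1, SLC2A1, PDK1, EGLN3, ANKRD37 and BNIP3) were higher under hypoxia, with log2-fold changes from 1.49 for SLC2A1, the glucose transporter GLUT1, to 6.69 for EGLN3, a HIF prolyl hydroxylase. Among the normoxia libraries, replicate 3 was the highest for each of these genes. In normoxia replicates 1, 2 and 3, NDRG1 measured 163.3, 140.4 and 408.9 CPM and CA9 32.2, 27.3 and 67.7 CPM, all below the hypoxia libraries. Of 8 squamous and epithelial markers, 7 were tested, and EPCAM, CDH1, KRT5 and SFN each had a mean above 30 FPKM (fragments per kilobase of gene, scaled to the library total) in both conditions. The basal keratin KRT14 was at or under 3 counts in every library, so this marker of the labelled cell type was not detectable. Of the 7 tested, 2 were higher (CDH1 and DSG3, each with a log2-fold change of 1.35), 4 were lower and 1 did not pass. The largest decrease was in KRT6A, from 7.02 to 0.417 FPKM (log2-fold change -4.12). The summed FPKM of the 8 markers was 429.0, 413.3 and 416.1 under hypoxia and 470.1, 462.8 and 474.6 under normoxia.

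Markers of cells that store fat or often accompany tumor cells were looked up as well. Of 6 adipocyte markers, ADIPOQ, CIDEC and FABP4 had no row, and LEP was at or under 3 counts in every library. The lack of a row does not say whether a gene had no reads or was not annotated. The most abundant marker was LIPE, hormone-sensitive lipase, with a mean of 3.18 FPKM. The adipocyte markers summed to 3.53, 3.83 and 3.63 FPKM under hypoxia and to 3.26, 3.16 and 2.88 under normoxia, and of the 2 tested, PLIN1 alone passed. Of 5 fibroblast markers, 2 were tested, COL1A1 rose to 3.08 FPKM from 0.624, and the list summed to 3.95, 3.3 and 2.95 FPKM under hypoxia and 0.686, 0.516 and 0.959 under normoxia. Of 5 leukocyte markers, 3 were tested, CD14 and CSF1R rose, CD68 was the most abundant with a mean of 18.8 FPKM, and PTPRC and LYZ, which define leukocytes and macrophages, were at or under 3 counts in every library. The leukocyte list summed to 21.6, 24.4 and 24.9 FPKM under hypoxia and 20, 18.8 and 21.1 under normoxia. The part of these cell types in the changes described here was not tested. In bulk RNA, fewer cells of a type and less RNA per cell cannot be told apart.

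The strongest increases were in the droplet proteins HILPDA and PLIN2. HILPDA (Entrez gene 29923) measured 108.4, 118.7 and 120.5 CPM under hypoxia and 14.5, 13.5 and 12.8 CPM under normoxia. Its lowest hypoxia library thus lay far above its highest normoxia library, and the replicates of each condition stayed close together. The means of 115.9 ± 6.52 and 13.6 ± 0.84 CPM (SD, n = 3 each) corresponded to a fold change of 8.5 (95% interval 7.72 to 9.35; log2-fold change 3.09, SE 0.07), with an adjusted p-value of 1.82e-15. In a test of a single gene over 3 against 3 libraries the exact two-sided permutation p was 0.1, the smallest that the design allows, and it was the same for each of the 8 genes without overlap.

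PLIN2 (Entrez gene 123), the perilipin that coats droplets in most cell types outside fat, measured 855.5, 982.6 and 970.2 CPM under hypoxia and 149.4, 155.2 and 142.9 CPM under normoxia. All hypoxia libraries were above 800 CPM, and hypoxia replicate 1 was the lowest of them for PLIN2 and HILPDA alike. The mean rose from 149.2 ± 6.13 to 936.1 ± 70.1 CPM (SD, n = 3 each), a fold change of 6.28 (95% interval 5.77 to 6.83; log2-fold change 2.65, SE 0.062; adjusted p-value 2.88e-15). PLIN3 (Entrez gene 10226, also known as TIP47), a perilipin that is also found free in the cytosol, measured 136.6, 136.4 and 145.2 CPM under hypoxia and 109.4, 102.6 and 119.5 CPM under normoxia. Its groups did not overlap, but the rise was small, with a fold change of 1.26 (log2-fold change 0.33, SE 0.06) and an adjusted p-value of 7.18e-05.

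**Figure D2:**
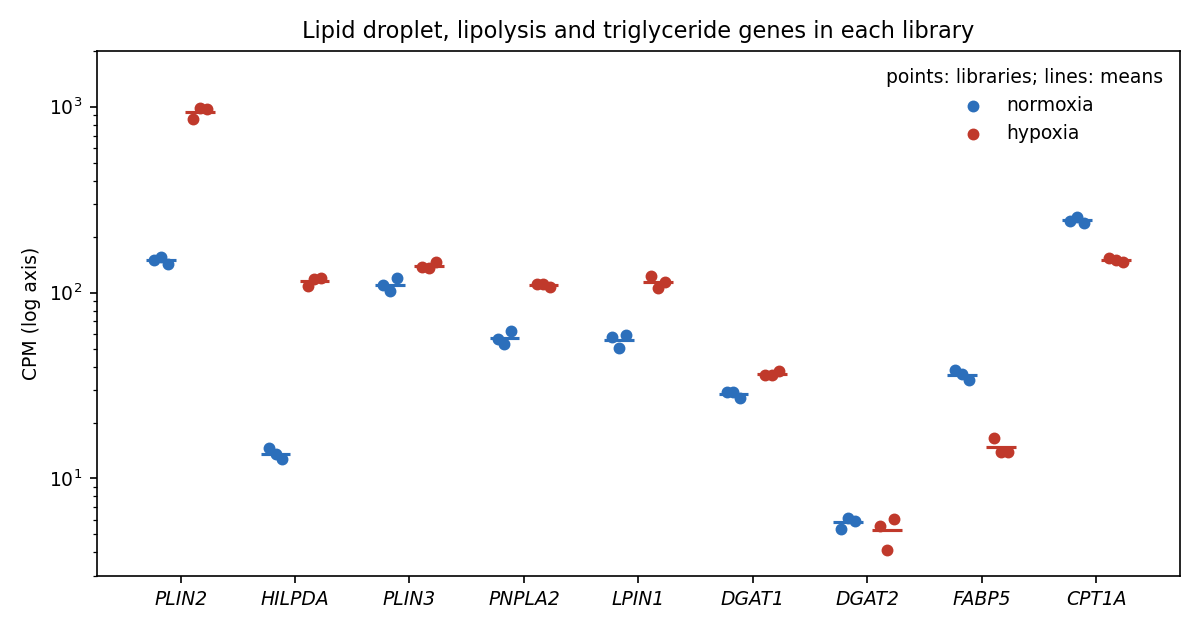
CPM of each gene (log axis) in the 3 normoxia libraries (blue points) and the 3 hypoxia libraries (red points), with lines at the means. PLIN2 and HILPDA show the widest gaps between conditions, DGAT2 alone overlaps, and CPT1A and FABP5 lie lower under hypoxia. G0S2 is not drawn because most of its counts are 0.

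The perilipins differ in length, so their levels were set side by side in FPKM. PLIN2 made up 57, 59.5 and 53.7% of the summed FPKM of PLIN1 to PLIN5 in the normoxia libraries and 85.7, 87.3 and 86.5% in the hypoxia libraries. PLIN3 supplied nearly all of the rest, with a share of 42.9 ± 2.84% under normoxia and 13.2 ± 0.802% under hypoxia (SD, n = 3 each), although its own level rose. The ratio of PLIN2 to PLIN3 was 1.33 ± 0.154 under normoxia and 6.58 ± 0.462 under hypoxia. PLIN1, PLIN4 and PLIN5, named here after their values were seen, each stayed under 1 FPKM in every library. PLIN1, the perilipin of adipocytes, had 27, 49 and 37 counts under hypoxia and 1, 0 and 1 under normoxia, which is at least 11.6-fold higher against a floor of 3 counts per library. PLIN5, known from oxidative tissues, had 38, 60 and 54 counts under hypoxia and 7, 6 and 7 under normoxia (log2-fold change 2.82, SE 0.40, adjusted p-value 4.8e-06).

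To show what lies upstream of the most abundant perilipins, PLIN2 with a large rise and PLIN3 with a small one, the 250 bases before their transcription starts are given from RefSeq promoter windows of GRCh38.p14, PLIN2 at chr9:19127493-19127742 and PLIN3 at chr19:4867668-4867917, each read on the minus strand from 5′ to 3′. Capitals mark every match to ACGTG or GCGTG, the core letters of the hypoxia response element, searched on both strands so that CACGT and CACGC also count.
PLIN2: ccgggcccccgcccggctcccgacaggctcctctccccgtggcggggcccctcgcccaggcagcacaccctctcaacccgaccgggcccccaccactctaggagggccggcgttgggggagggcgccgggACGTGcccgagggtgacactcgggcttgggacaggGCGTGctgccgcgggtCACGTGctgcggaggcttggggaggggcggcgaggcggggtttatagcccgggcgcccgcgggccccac
PLIN3: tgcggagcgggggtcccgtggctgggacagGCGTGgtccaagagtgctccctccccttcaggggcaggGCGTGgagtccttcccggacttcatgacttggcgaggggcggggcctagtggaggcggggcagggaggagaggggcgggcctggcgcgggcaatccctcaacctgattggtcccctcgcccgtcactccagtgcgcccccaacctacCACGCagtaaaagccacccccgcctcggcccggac
The PLIN2 window held 3 matches to ACGTG and 1 to GCGTG, at 120, 85, 69 and 68 bases before the start. The pair at 69 and 68 overlaps within the palindrome CACGTG, which reads as ACGTG on both strands and is therefore counted once on each. The PLIN3 window held 3 matches to GCGTG and none to ACGTG. Of 35116 windows of the same length, 18.5% held ACGTG, 32.2% GCGTG and 43.2% at least one of them, so such matches are common and are a description of the letters, not of sites that a factor binds. Of the 10 genes, 6 were matched to a window by symbol. Windows on the chromosome that holds DGAT1 and FABP5 were left out of this match. Whether those genes have a listed window is therefore not shown here.

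A second gene was counted at the HILPDA locus. HILPDA-AS1, listed by RefSeq as the transcribed pseudogene EFCAB3P1 and named here after its values were seen, spans HILPDA. It had 2023, 2938 and 2349 counts under hypoxia and 74, 54 and 73 under normoxia. The mean rose from 2.11 ± 0.31 to 72.5 ± 6.37 CPM (SD, n = 3 each; log2-fold change 5.10, SE 0.11; adjusted p-value 1.35e-15). Whether the counting used the strand is not given in the sources used here, and exon bases shared by the pair were not measured, so whether reads were divided between them was not tested. With both genes summed into a single row, an alternative added after seeing the data, the log2-fold change was 3.58 (SE 0.068, adjusted p-value 5.24e-16). HILPDA shares 175 and 186 exon bases with 2 other genes that GENCODE annotates on the same strand, which were not analysed here.

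Genes with a pattern close to that of HILPDA and PLIN2 were sought over the 6 libraries, by the root mean square difference of log2 CPM after centring each gene. As the libraries form only a hypoxia and a normoxia group, a small difference mainly means a similar log2-fold change. Shared regulation was not tested. The gene nearest to HILPDA was ADM, which encodes the vasodilator adrenomedullin and is a known HIF target, with a difference of 0.0736 and a log2-fold change of 3.04. ICAM5 and SCEL followed with differences of 0.102 and 0.104. PLIN2 had PHF21A (0.0619), NRG4 (0.0916) and SLC6A8, a creatine transporter (0.0959), as its nearest genes. NRG4 stayed below 1 FPKM in both condition means.

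The lipase and its inhibitors came next. PNPLA2 (Entrez gene 57104) measured 111.9, 111.3 and 107.0 CPM under hypoxia and 56.4, 53 and 62.5 CPM under normoxia. Every hypoxia library was above 100 CPM and every normoxia library below 70 CPM. The mean rose 1.92-fold (95% interval 1.77 to 2.09), from 57.3 ± 4.81 to 110.1 ± 2.67 CPM (SD, n = 3 each; log2-fold change 0.94, SE 0.062; adjusted p-value 2.75e-10). The nearest genes in pattern were LINC00674 (difference 0.027), KIAA1522 (0.0279) and SREBF2 (0.0306), the last of which encodes a transcription factor of cholesterol synthesis. G0S2 (Entrez gene 50486), the other small inhibitor of ATGL, had 0, 1 and 0 counts under hypoxia and 2, 0 and 0 under normoxia. It was thus not detectable at this depth in either condition, where 3 counts correspond to 0.0806 to 0.105 CPM, and no fold change is given.

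Set against each other in FPKM, the lipase and its inhibitors changed order. HILPDA plus G0S2 over PNPLA2 was 0.458, 0.452 and 0.363 in the normoxia libraries and 1.72, 1.89 and 1.99 in the hypoxia libraries. The lipase transcript was therefore the more abundant of the pair in every normoxia library, and HILPDA the more abundant in every hypoxia library. In FPKM, PNPLA2 rose from 23.3 ± 2.17 to 46.3 ± 1.56 and HILPDA from 9.81 ± 0.698 to 86.3 ± 5.14 (SD, n = 3 each). These ratios compare RNA, were given no test, and say nothing of protein or of lipase activity.

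**Figure D3:**
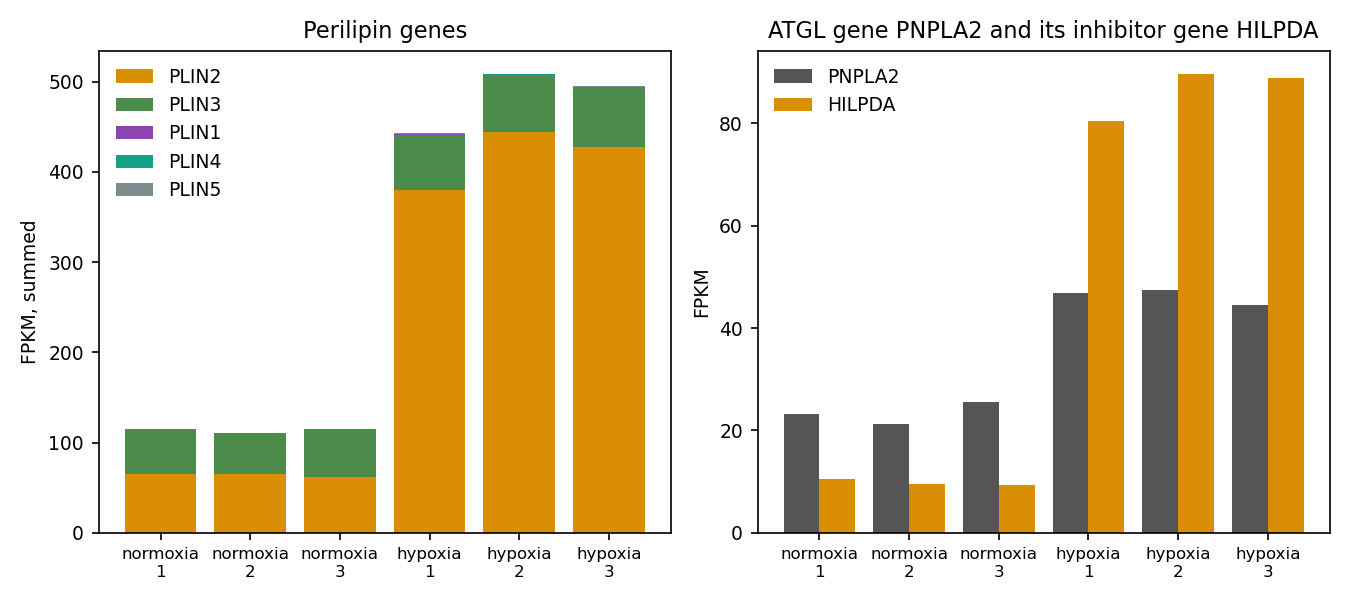
FPKM in each library (x axis). Left, bars stack PLIN1 to PLIN5, and PLIN2 takes 53.7 to 59.5% of the stack under normoxia and 85.7 to 87.3% under hypoxia; right, PNPLA2 (grey) stands above HILPDA (orange) in the 3 normoxia libraries and below it in the 3 hypoxia libraries.

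The corresponding windows of the lipase and of its undetected inhibitor are given next, chosen after their matches were seen. Any part of these motifs in the levels of RNA was not tested. PNPLA2 lies at chr11:818664-818913 and G0S2 at chr1:209675162-209675411, both on the plus strand of GRCh38.p14 and with capitals as for PLIN2.
PNPLA2: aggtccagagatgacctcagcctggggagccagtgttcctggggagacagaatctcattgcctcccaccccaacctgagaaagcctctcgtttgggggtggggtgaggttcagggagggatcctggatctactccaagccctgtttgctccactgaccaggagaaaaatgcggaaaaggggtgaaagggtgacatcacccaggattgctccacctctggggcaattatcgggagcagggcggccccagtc
G0S2: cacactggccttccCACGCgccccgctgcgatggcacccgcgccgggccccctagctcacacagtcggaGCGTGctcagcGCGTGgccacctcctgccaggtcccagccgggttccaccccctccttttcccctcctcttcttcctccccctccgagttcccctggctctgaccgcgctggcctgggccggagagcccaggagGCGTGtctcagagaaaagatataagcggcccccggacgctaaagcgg
The PNPLA2 window held no match to ACGTG or GCGTG, which says only that these letters are not in these 250 bases. The G0S2 window held 4 matches to GCGTG, at 236, 181, 170 and 47 bases before the start, and none to ACGTG. Among the other windows, that of CPT1A held no match, and of 3 starts listed for LPIN1 a single window held 1 match to GCGTG.

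Of LPIN1, DGAT1 and DGAT2, LPIN1 changed most. LPIN1 (Entrez gene 23175), a phosphatidate phosphatase that makes diacylglycerol, measured 123.5, 105.3 and 113.4 CPM under hypoxia and 57.4, 50.2 and 58.8 CPM under normoxia. All hypoxia libraries were above 100 CPM and all normoxia libraries below 60 CPM. The mean rose from 55.5 ± 4.63 to 114.1 ± 9.11 CPM (SD, n = 3 each), a fold change of 2.05 (log2-fold change 1.04, SE 0.07; adjusted p-value 3.73e-10). Its log2-fold change was 0.96 without normoxia replicate 2 and 0.97 without hypoxia replicate 1, both under 1. Among the lipins in FPKM, the share of LPIN1 was 52.6, 49.8 and 51.7% under normoxia and 43.7, 40.4 and 43.6% under hypoxia, where LPIN2 and LPIN3 were higher as well.

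DGAT1 and DGAT2 are unrelated enzymes that catalyse the same last step of triglyceride synthesis. DGAT1 (Entrez gene 8694) measured 36.2, 36 and 37.8 CPM under hypoxia and 29.1, 29.1 and 27 CPM under normoxia. The groups did not overlap, and the fold change was 1.29 (log2-fold change 0.37, SE 0.069; adjusted p-value 0.000106). DGAT1 shares 444 exon bases with another gene that GENCODE annotates on the same strand, which was not analysed here, and 139 exon bases with HSF1 on the opposite strand. HSF1, the heat shock transcription factor, averaged 114.5 CPM under hypoxia and 127.0 CPM under normoxia (log2-fold change -0.15, adjusted p-value 0.0192). Opposite-strand genes not analysed here share 502 exon bases with PLIN3, 401 with PNPLA2, 115 with LPIN1 and 94 with FABP5. With DGAT2, such genes share 117 and 423 exon bases. Whether the counting used the strand is not given, and any part of these overlaps in the counts was not tested. DGAT2 (Entrez gene 84649) measured 5.57, 4.14 and 6.04 CPM under hypoxia and 5.32, 6.15 and 5.92 CPM under normoxia. Its values overlapped, with hypoxia replicate 2 the lowest of all, and the log2-fold change was -0.14 (95% interval -0.46 to 0.18; adjusted p-value 0.426; exact two-sided permutation p = 0.6). The 154 to 198 counts per library behind DGAT2 leave this interval wide, and they do not show that its level stayed the same. DGAT1 over DGAT2 in FPKM was 3.18 ± 0.311 under normoxia and 4.62 ± 0.87 under hypoxia (SD, n = 3 each).

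FABP5 and CPT1A, the remaining genes of the 10, were lower under hypoxia. FABP5 (Entrez gene 2171), the epidermal fatty acid binding protein, measured 16.5, 13.9 and 13.8 CPM under hypoxia and 38.4, 36.3 and 34 CPM under normoxia. Every hypoxia library lay below 20 CPM and every normoxia library above 30 CPM. The mean decreased from 36.2 ± 2.2 to 14.7 ± 1.56 CPM (SD, n = 3 each), a 2.46-fold decrease (log2-fold change -1.30, SE 0.088; adjusted p-value 3.98e-10). GENCODE lists 13 pseudogenes named for FABP5, none with a row of its own here, so how reads shared with them were counted is uncertain. FABP5 still made up 92.1 ± 0.766% of the summed FPKM of all FABP genes under hypoxia and 99.5 ± 0.116% under normoxia.

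CPT1A (Entrez gene 1374), the carnitine palmitoyltransferase that admits long-chain fatty acids to mitochondria and limits the rate of their oxidation, measured 153.7, 148.9 and 146.8 CPM under hypoxia and 243.2, 256.1 and 237.9 CPM under normoxia. The conditions were separated by more than 80 CPM, and the replicates of each lay within 20 CPM of one another. The mean decreased from 245.7 ± 9.37 to 149.8 ± 3.53 CPM (SD, n = 3 each), a 1.64-fold decrease (log2-fold change -0.71, SE 0.052; adjusted p-value 9.6e-10). CPT1A remained nearly the only form, with 99.2, 99.2 and 98.7% of the summed FPKM of CPT1A, CPT1B and CPT1C under normoxia and 96.5, 97.4 and 95.8% under hypoxia.

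On the FPKM scale, which corrects for gene length, the order of the levels themselves differed between conditions. Under normoxia the means ran from PLIN2 (64.3 FPKM) through FABP5 (52.7), PLIN3 (48.7), CPT1A (41.2), PNPLA2 (23.3), HILPDA (9.81), LPIN1 (8.2) and DGAT1 (7.24) to DGAT2 (2.29). The libraries of FABP5 and PLIN3 overlapped, as did those of LPIN1 and DGAT1, so these neighbours do not differ beyond their spread. Under hypoxia the order was PLIN2 (417.2 FPKM), HILPDA (86.3), PLIN3 (63.4), PNPLA2 (46.3), CPT1A (25.9), FABP5 (22.1), LPIN1 (17.4), DGAT1 (9.65) and DGAT2 (2.14), with no overlap between neighbours. Among all genes of the table, PLIN2 moved from rank 974 to rank 120 in mean FPKM and HILPDA from rank 4888 to rank 634. The 10 genes summed to 264.6, 251.9 and 257.0 FPKM under normoxia and to 650.4, 719.5 and 701.6 FPKM under hypoxia, where PLIN2 made up most of the sum. Tested with limma on log2(FPKM + 1), the same 8 genes passed in the same direction, from 3.01 for HILPDA (adjusted p-value 8.22e-10) to -1.22 for FABP5 (adjusted p-value 1e-07); this readout comes from the same libraries and is no independent evidence.

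Other genes of the pathway were grouped by role, and each group is described by counts beside the shares of 39.2% higher and 38.5% lower among all genes tested. Of 11 tested genes of droplet coat and assembly, 6 were higher, 3 lower and 2 did not pass, with a median log2-fold change of 0.86. LDAF1, a partner of seipin at sites where droplets form, rose from 3.28 ± 0.27 to 9.73 ± 0.393 FPKM (SD, n = 3 each; log2-fold change 1.52, adjusted p-value 7.38e-11). AUP1 and RAB18, which reside on droplets and the endoplasmic reticulum, fell by 0.72 and 0.42 on the log2 scale. The increases in this group were mostly in genes of low level, since PLIN1, PLIN4, PLIN5, BSCL2 and METTL7A were all under 1 FPKM on average, and 3 genes were higher when no library could have under 10 counts.

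**Figure D4:**
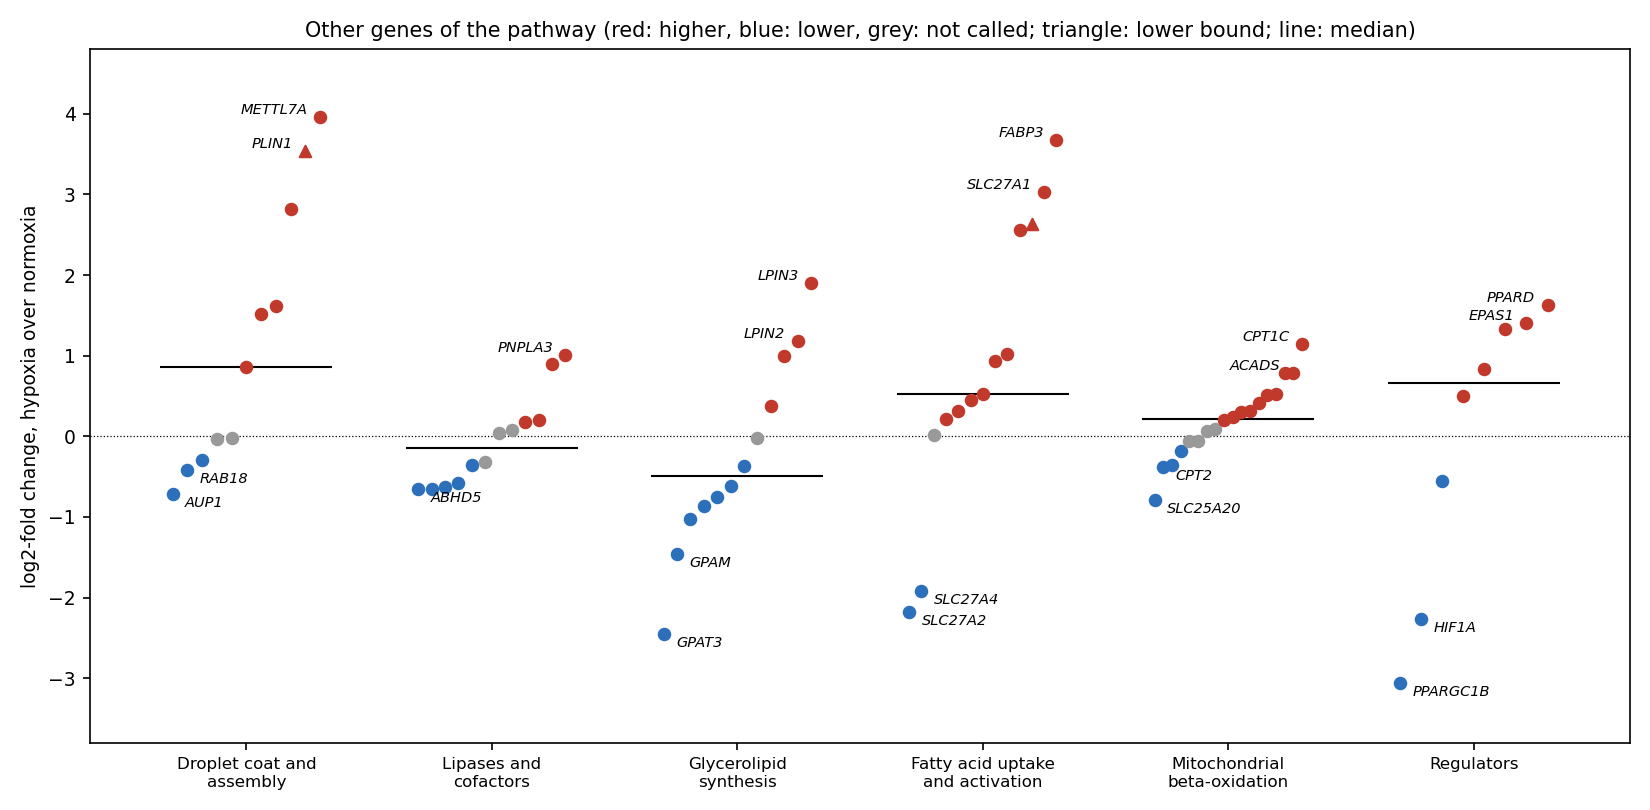
Log2-fold change under hypoxia relative to normoxia (y axis) of each tested gene in 6 pathway groups (x axis), with lines at the group medians and names at the extremes. Synthesis genes range from GPAT3 at -2.45 to LPIN3 at 1.90, and regulators from PPARGC1B at -3.06 to PPARD at 1.63; triangles (PLIN1 and LPL) are lower bounds.

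The 12 lipases and cofactors were split, with 4 higher, 5 lower and 3 that did not pass (median log2-fold change -0.14). Without a filter on low counts, 2 were higher. PNPLA3, a droplet protein related to ATGL, rose from 4.68 ± 0.768 to 9.74 ± 0.91 FPKM (log2-fold change 1.01, SE 0.11), and LIPA, the lysosomal acid lipase, from 17.8 ± 1.16 to 34.2 ± 0.243 FPKM (0.90, SE 0.057; SD, n = 3 each). FAF2, which recruits the degradation machinery to droplets, fell by 0.65 on the log2 scale. Named after their values were seen, ABHD5, the coactivator of ATGL, decreased from 3.81 ± 0.204 to 2.51 ± 0.0754 FPKM (log2-fold change -0.65, adjusted p-value 2.2e-06), and MGLL, monoglyceride lipase, from 35.1 ± 2.5 to 24.3 ± 1.06 FPKM (-0.58, adjusted p-value 1.29e-07). LIPE, which acts on diacylglycerol after ATGL, had a log2-fold change of 0.037 (adjusted p-value 0.719).

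In glycerolipid synthesis, 4 of 12 tested genes were higher and 7 lower, with a median log2-fold change of -0.49. The first step, performed by glycerol 3-phosphate acyltransferases, fell in all 3 forms measured above 1 FPKM. GPAT3 decreased from 7.86 ± 0.924 to 1.49 ± 0.171 FPKM (log2-fold change -2.45, SE 0.11, adjusted p-value 1.81e-12) and GPAM, the mitochondrial form, from 3.68 ± 0.161 to 1.38 ± 0.115 FPKM (-1.46, SE 0.093; SD, n = 3 each). GPAT4, named after its values were seen, decreased from 19 ± 1.19 to 10.7 ± 0.536 FPKM (log2-fold change -0.87). The lipins rose throughout: LPIN3 from 3.53 ± 0.306 to 13.6 ± 1.2 FPKM (log2-fold change 1.90, SE 0.079, adjusted p-value 8.48e-13) and LPIN2, also named after its values were seen, by 1.18 on the log2 scale. MOGAT1, MOGAT2 and MOGAT3, enzymes of an alternative route from monoacylglycerol, were at or under 3 counts in every library.

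Of 13 tested genes of fatty acid uptake and activation, 10 were higher and 2 lower (median log2-fold change 0.53). The fatty acid transport proteins moved in both directions. SLC27A1 rose from 0.368 ± 0.202 to 3.08 ± 0.256 FPKM (log2-fold change 3.03, SE 0.23), whereas SLC27A2 decreased from 7.76 ± 0.826 to 1.76 ± 0.15 FPKM (-2.18, SE 0.13) and SLC27A4 from 12.9 ± 1.73 to 3.54 ± 0.435 FPKM (-1.92, SE 0.10; SD, n = 3 each). Of the acyl-CoA synthetases, named after their values were seen, ACSL3, which resides on nascent droplets, rose from 20.1 ± 1.85 to 42.1 ± 0.602 FPKM (log2-fold change 1.02) and ACSL1 rose by 0.93 on the log2 scale.

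Of 18 tested genes of mitochondrial beta-oxidation, 10 were higher and 4 lower (median log2-fold change 0.22), and the decreases included SLC25A20 and CPT2, the carnitine steps next to CPT1A. SLC25A20, the carnitine-acylcarnitine carrier, decreased from 10.1 ± 0.136 to 6 ± 0.319 FPKM (log2-fold change -0.79, SE 0.095, adjusted p-value 7e-07). CPT2, the inner carnitine palmitoyltransferase and named after its values were seen, fell by 0.38 on the log2 scale (adjusted p-value 6.34e-05). Within the matrix the changes went both ways. ACADS, the short-chain acyl-CoA dehydrogenase, and DECR1, the dienoyl-CoA reductase, rose by 0.79 (SE 0.16) and 0.78 (SE 0.078) on the log2 scale. The more abundant ACADVL, HADHA and HADHB, named after their values were seen, rose by 0.20, 0.24 and 0.53. Their means over all libraries were 126.1, 109.2 and 37.1 FPKM. Named after their values were seen, ACADM, the medium-chain acyl-CoA dehydrogenase, fell by 0.36 (adjusted p-value 0.000295) and ETFA, an electron transfer flavoprotein subunit, by 0.18 (adjusted p-value 0.00796). Of the carnitine steps, CPT1C, also named after its values were seen, rose by 1.15 (adjusted p-value 0.000878), with a mean under 1 FPKM in both conditions.

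Among regulators of lipid metabolism, 5 of 8 tested genes were higher and 3 lower. HIF1A, the oxygen-regulated HIF subunit, decreased from 75.1 ± 2.82 to 16.2 ± 2.46 FPKM (log2-fold change -2.26, SE 0.083, adjusted p-value 2.08e-13), while EPAS1, which encodes HIF2alpha, rose from 18.9 ± 1.8 to 51.5 ± 2.85 FPKM (1.40, SE 0.065; SD, n = 3 each). HIF1alpha is regulated mainly at the level of protein, which was not measured here. Of the nuclear receptors of fatty acids, PPARD rose from 6.26 ± 0.629 to 20 ± 1.41 FPKM (log2-fold change 1.63) and PPARA from 1.27 ± 0.165 to 3.3 ± 0.101 FPKM (1.33), whereas PPARG decreased from 4.81 ± 0.0485 to 3.36 ± 0.196 FPKM (-0.56; SD, n = 3 each). Their partner RXRA rose by 0.50 and SREBF1, a regulator of fatty acid synthesis genes, by 0.83 on the log2 scale. Of the coactivators of oxidative genes, PPARGC1B, named after its values were seen, had 98, 89 and 40 counts under hypoxia and 759, 592 and 467 under normoxia, the largest change of the group (log2-fold change -3.06, SE 0.21, adjusted p-value 3.76e-10), and PPARGC1A was at or under 3 counts in every library.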

How the data were processed

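RNA-seq of SCC25 cells under hypoxia and normoxia was analysed, 3 libraries each, as grouped by the labels; the legend of an enrichment panel in the study names SCC9, another oral line. The authors deposited raw counts per gene, and FPKM of the same genes, which follow from counts, a gene length and the library total within 0.1% for 21775 of 21776 genes. RNA came from an RNeasy kit and libraries from a SMARTER mRNA kit. Aligner, annotation and counting tool are not given in the sources used here; the submitters' processing notes name the mouse builds GRCm38 and mm10 although the genes are human, so no coordinates other than those of RefSeq windows are given.

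Counts were tested with edgeR 4.0.16 (glmQLFTest, TMM, filterByExpr, 14255 genes, Benjamini-Hochberg adjustment at 0.05) in R 4.3.3, and log2(FPKM + 1) of 10976 genes with a mean of at least 1 with limma 3.58.1. CPM were taken from the counts with TMM-adjusted library sizes. For edgeR, the SE was the absolute log2-fold change over the square root of the F statistic. The 95% intervals used this SE and a normal quantile, which makes them narrower than intervals from a t distribution. With totals of 29637189 to 37278703 counts, a level of at most 3 counts per library was treated as not detectable, which covers counting error only; the biological coefficient of variation was 0.0685. All replicate pairs differed by more than sampling noise (chi-square per gene 5.11 to 11.5). The edgeR, DESeq2 and limma steps were tested on simulated data. The genes and lists were chosen with earlier results of these data known. Named were the 10 genes, in each list the 3 largest changes with a mean of at least 1 FPKM, such regulators as pass that mean, the 3 nearest genes in pattern to HILPDA, PLIN2 and PNPLA2, the markers and the label check genes. Others are named as chosen after their values were seen. Genes given only as undetected, low in level, part of a share or sharing exon bases do not carry that mark where they are named. METTL7A and METTL7B were matched by Entrez number, and 6 listed genes had no row. Alternatives were DESeq2 size factors, the DESeq2 1.42.0 Wald test, no filter or at least 10 counts in every library, a replicate block, each library left out, a log2-fold change beyond 1, an FPKM pseudocount of 0.1 and no FPKM filter.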

Additional observations from a re-analysis of the deposited data

How the results depend on the processing

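Of 99 values of the 9 tested genes under alternative fits of the counts, 98 kept their direction and call. The exception was DGAT2, whose log2-fold change was 0.0019 without hypoxia replicate 2, against -0.14 with all libraries, and ranged from -0.26 to 0.0019 as each library was left out; on log2(FPKM + 1) it was 0.028 without that library and ranged from -0.14. With a log2-fold change beyond 1 required, 3 rather than 6 of the genes were higher and 1 rather than 2 lower. Of the other pathway genes (11, 12, 12, 13, 18 and 8 tested in the 6 groups above), 18 rather than 39 were higher and 7 rather than 24 lower. Over all genes tested, the same requirement took the share called higher from 39.2% to 19.9% and the share called lower from 38.5% to 10.5%. Leaving out single libraries moved HILPDA between 3.03 and 3.13, PLIN2 between 2.60 and 2.70, and FABP5 between -1.40 and -1.26.

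The replicate numbers did not pair the libraries (correlations of same-numbered deviations 0.0175, -0.069 and 0.00122). With the number as a replicate block, HILPDA stood at 3.09 and PLIN2 at 2.65, no call on the 10 genes changed, and 10875 rather than 11090 genes were called in all. The depth leaves G0S2 unmeasured and DGAT2 imprecise. A single time point, a single line and RNA alone were measured.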

Other observations

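The annotation that the authors deposited with the counts assigns the Gene Ontology term lipid droplet to 99 genes, of which 84 were tested; 6 of the 10 genes described above carry it. Among the 84 genes, 41 were higher and 30 lower under hypoxia in edgeR's quasi-likelihood test, where 39.2% of all genes tested were higher and 38.5% lower. Their median log2-fold change was 0.16, beside 0.023 for all genes tested. The genes named next are outside the lists and were chosen for their size after their values were seen. The largest increases were in ALDH3B2, an aldehyde dehydrogenase (log2-fold change 5.79, SE 0.30, from 0.0493 ± 0.0108 to 2.85 ± 0.603 FPKM), DHRS3, a retinaldehyde reductase (2.21, SE 0.11, from 14.5 ± 3.68 to 69.1 ± 2.88 FPKM; SD, n = 3 each), ZFYVE1 (2.10), RAB40C (1.97) and CLSTN3 (1.74). Among the larger decreases were those of EHD1, a membrane remodelling ATPase (log2-fold change -1.52, SE 0.061), PRPF19 (-1.29), IRAK1 (-1.17) and VCP, the ATPase that extracts proteins for degradation (-1.14). VCP and PRPF19 were abundant, decreasing from 191.2 ± 2.86 to 89.9 ± 5.13 FPKM and from 109.4 ± 5.21 to 46.3 ± 3.73 FPKM (SD, n = 3 each).

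By the same annotation, and beside 39.2% higher and 38.5% lower among all genes tested, 12 of 20 tested genes of lipid storage were higher and 4 lower (median log2-fold change 0.35), and 6 of 10 genes of triglyceride catabolism were higher and 1 lower (0.56). For fatty acid transport, 10 of 17 tested genes were higher and 6 lower (0.71). Triglyceride biosynthesis had 7 of 14 higher and 5 lower (0.17), lipid catabolism 16 of 36 higher and 11 lower (0.10), and fatty acid beta-oxidation 21 of 41 higher and 12 lower (0.24). These terms overlap with each other and with the lists above, and their counts are descriptions without a test.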
